A study of Bos taurus with 8 samples.

Results

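Genes of the cell's inner scaffold and of its surface membrane were followed from the morula to the inner cell mass (ICM) and the trophectoderm (TE) of bovine embryos, namely *CAV1*, *VIM*, *PRPH*, *MAP1B* and *MYL9*. All probes that the annotation of the array assigns to these genes were taken, which gave 20 of the 43653 gene probes, 5 each for *CAV1*, *VIM* and *MYL9*, 4 for *MAP1B* and 1 for *PRPH*. They stand for 5 of the 12545 genes with a symbol. The genes were chosen by their ICM and TE values on these arrays, so differences between ICM and TE are given for them as a description, with no test. The comparison of blastocysts with morulae sets other samples against each other, and there each probe was tested. Its fit shares a dye term and an estimate of the spread with the ICM and TE arrays. Blastocysts also contain both tissues, so this test is not independent of the choice of genes.

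Caveolin-1, the product of *CAV1*, coats caveolae, small flask-shaped pits of the plasma membrane that are rich in cholesterol. Vimentin (*VIM*) and peripherin (*PRPH*) assemble into intermediate filaments, vimentin typically in mesenchymal cells and peripherin in neurons of the peripheral nervous system. MAP1B binds microtubules and is best known from growing axons, and MYL9 is a regulatory light chain of the myosin that makes actin bundles contract. At the blastocyst stage the TE has become an epithelium that encloses a fluid-filled cavity, while the ICM, which lies within it, gives rise to the embryo proper.

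RNA of in vitro produced embryos, cultured with no inhibitor, was measured in 4 groups: morulae of day 5, and blastocysts, ICM and TE of day 9, each with 2 replicate samples. A sample pooled several embryos, and ICM and TE were separated by hand with needles, which left some TE cells on the ICM. Each sample was hybridized on a two-colour array against a pool made from blastocysts, and the dyes were exchanged between the replicates, so that a level is given as the log2 ratio of sample over pool and 0 is the level of the blastocyst pool. Ratios compare samples for 1 probe, and the level of one probe was not set against that of another. In pooled tissue, fewer cells of a type and less RNA per cell cannot be told apart.

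In the channel of the sample, an array's median intensity was between 229.9 and 536 where the median local background was between 47.5 and 60.1. From 90.3% to 94.8% of gene probes exceeded the background, depending on the array. The labelled tissues were checked against their markers: *NANOG*, *SOX2*, *PRDM14* and *ZIC2*, transcription factors of the ICM or epiblast, were called higher in the ICM in 4 of 4 cases. Of 4 TE markers measured, *GATA3* and the placental protein gene *PAG2* were called higher in the TE. *ASCL2* (log2 difference of ICM and TE -0.63, adjusted p = 0.242) and *TFAP2C* (0.46, adjusted p = 0.256, saturated on 5 arrays) were not called, the latter with the higher mean in the ICM. Of 7 primitive endoderm markers listed, 4 were measured, *GATA6*, *GATA4*, *SOX17* and *HNF4A*. Of these 0 were called between ICM and TE by limma, and 0 had an unadjusted p under 0.05. *HNF4A* was judged by 1 of its 3 probes. The study lists *HNF4A*, and *PDGFRA*, which was not measured here, among its genes most raised in the ICM over the TE. No absence of primitive endoderm is read from these 4.

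By the brightest probe of each gene, which here stands for the gene, the 5 members did not share 1 pattern. *CAV1* and *VIM* were higher in the ICM than in the TE, *PRPH* was higher in the TE, and *MAP1B* and *MYL9* lay near no difference. The *MYL9* probe was saturated on 4 arrays. The study lists *MAP1B* and *MYL9* as at least 2-fold higher in the ICM, by probes chosen for their place along the transcript. Those probes could not be located here. None of the 4 *MAP1B* probes reached 2-fold here, the largest being 1.36-fold. Among the *MYL9* probes, BTAA017743 did, at 2.45-fold. The reason for the difference from the study was not tested. In a ranking of the 12545 genes from the highest in the ICM to the highest in the TE, *CAV1* stood at place 3 and *VIM* at place 31, whereas *PRPH* stood at place 2 from the TE end. *MAP1B* was at place 4335 from the ICM end and *MYL9* at place 1688 from the TE end. These ranks come from the values that chose the genes and are no independent evidence. A higher level in the inner cells describes all 5 *CAV1* probes, 3 of the 5 *VIM* probes and all 4 *MAP1B* probes. It describes 1 of the 5 *MYL9* probes and not *PRPH*. For *MAP1B* the differences were small, from 0.09 to 0.44 on the log2 scale, and that of the brightest probe was within its error.

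**Figure D1:**
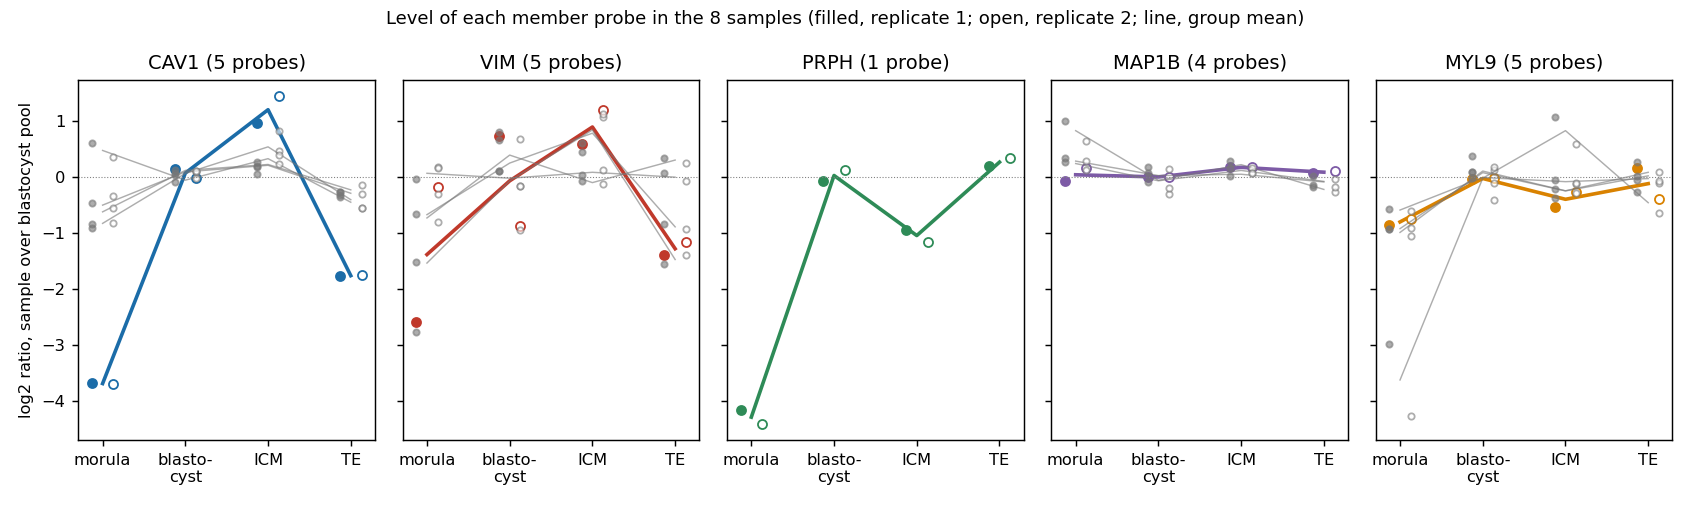
Log2 ratio of sample over the blastocyst pool (vertical axis) for the 20 probes in the 4 groups, 1 panel per gene. Filled points are replicate 1 and open points replicate 2, lines join the group means, and the coloured series is the brightest probe: *CAV1* and *VIM* peak in the ICM, *PRPH* falls from blastocyst to ICM, and *MAP1B* stays near 0.

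*CAV1*, the membrane member, rose from the morula to the blastocyst and was highest in the ICM by its brightest probe. Its brightest probe (BTAA013276) measured -3.69 and -3.70 in the morulae, 0.15 and -0.01 in the blastocysts, 0.96 and 1.45 in ICM and -1.77 and -1.76 in TE samples. Both morulae lay below every other sample, both ICM samples above every other, and no group overlapped another. The intensities behind these ratios were 253 and 389 in morulae and 2761 and 4373 in blastocysts, so the probe was above the local background on all 8 arrays.

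The blastocyst level of *CAV1* was 13.6-fold that of the morula (log2 difference 3.77, standard error 0.16, n = 2 per group, limma adjusted p = 5.63e-05). ICM exceeded TE 7.84-fold (log2 2.97, standard error 0.16). The difference of ICM from morula was larger, at 29.9-fold, and TE stood 3.82-fold above morula. By this brightest probe both parts of the blastocyst thus stood above the stage before. Relative to whole blastocysts, the ICM was 2.20-fold higher and the TE 3.57-fold lower.

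The other 4 *CAV1* probes were dim, with sample intensities between 120 and 887, and showed smaller differences. In each of them both ICM values exceeded both TE values, with log2 differences of 0.45, 0.50, 0.78 and 0.95. Between blastocyst and morula they divided: 3 rose by 0.60, 0.74 and 0.89 on the log2 scale, with adjusted p-values of 0.00406, 0.0127 and 0.0147, each under the 2-fold minimum. The fourth, BTAA031959, went the other way, at 0.60 and 0.35 in morulae against -0.09 and -0.02 in blastocysts (log2 difference -0.53, adjusted p = 0.0365, limma). By this probe the TE also lay below morulae (log2 difference -0.93, standard error 0.15), and the ICM differed from morulae by -0.15 (standard error 0.15). In the 3 others the ICM and TE means both lay above morulae.

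*VIM*, the first of the intermediate filament members, was high in the ICM and low in the TE, and its morula and blastocyst replicates disagreed. By its brightest probe (BTAA000019) the ICM measured 0.59 and 1.20 and the TE -1.40 and -1.17. These groups did not overlap, and ICM exceeded TE 4.53-fold (log2 2.18, standard error 0.82). The morulae measured -2.59 and -0.18 and the blastocysts 0.75 and -0.88, so that the second morula sample lay above the second blastocyst sample.

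The blastocyst mean of *VIM* was 2.50-fold that of the morula and the test was not passed (log2 1.32, standard error 0.82, limma adjusted p = 0.296). The value turned on single libraries: without morula replicate 1 it was -0.01 and without blastocyst replicate 1 it was -0.03, whereas without morula replicate 2 it was 2.65 (adjusted p = 0.0469) and without blastocyst replicate 2 it was 2.67 (adjusted p = 0.0389). No direction can therefore be given for *VIM* between morula and blastocyst.

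A second *VIM* probe, BTAA032315, followed the brightest one in every sample, with ICM over TE at 4.99-fold, and BTAA036817 did so at a lower size, 3.20-fold. BTAA040541 was flat, with sample intensities from 102 to 135 and ratios between -0.15 and 0.17 in all samples. BTAA025622 gave other values: its ICM values were -0.07 and -0.13 and its TE values 0.35 and 0.26. In morulae it measured -0.66 and -0.80, below the 0.11 and 0.68 of the blastocysts (log2 difference 1.13, adjusted p = 0.00500, limma). The probe was not well above the local background on either morula array or on the array of TE replicate 1, and with background correction by normexp the difference between the stages was -0.18, so no fold and no order of groups is given for it.

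The replicate gap of *VIM* was among the widest on the array. Morula replicate 2 exceeded replicate 1 by 2.41 on the log2 scale, the 99.9th percentile of the absolute replicate differences over all gene probes, and blastocyst replicate 1 exceeded replicate 2 by 1.62, the 99.8th percentile. In the ICM and TE the gaps were 0.61 and 0.23. The study's sample list equates the 2 blastocyst samples with 2 of its blastocyst pools. A gap of at least 1 in the same 2 directions was seen for 23 of 12545 genes, and the opposite combination for 0 of them. Replicate 1 was higher by at least 1 in both groups for 16 genes, and replicate 2 for 0. The 23 genes, singled out after their values were seen, include *VIM*. By the 2 gaps added, the largest were *LUM*, *HTRA1*, *OLR1*, *IGFBP7*, *SFRP2*, *GEM*, *SCG2*, *C1QTNF3* and *XCL2*. Next came *VIM*, *NREP*, *PLAT*, *FMOD*, *IFI6* and *IFITM2*.

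*LUM* codes for lumican, a proteoglycan of collagenous matrix and one of the fibroblast markers examined. It measured -3.64 and 0.45 in morulae, 0.79 and -3.49 in blastocysts, -3.50 and -2.57 in ICM and -3.70 and -1.65 in TE samples. Morula replicate 2 and blastocyst replicate 1 thus stood far above the 6 other samples. A second *LUM* probe had gaps of 0.89 and 0.58 in the same directions. Over the 8 fibroblast markers measured, the mean log2 ratio was -0.54 and 0.22 in the morulae and 0.22 and -0.50 in the blastocysts, and the summed level relative to the pool was 11.1 and 12.4 in morulae, 9.57 and 6.83 in blastocysts and 6.62 to 7.5 in ICM and TE. Without *LUM* the mean over the other 7 was -0.10 and 0.18 in morulae and 0.14 and -0.07 in blastocysts. Their summed level was 11.0 in both morulae and 7.84 and 6.74 in blastocysts, so by the sum the morula replicates did not differ. Among these 7, *TWIST1* and *ZEB1* were called higher in morulae and *COL1A2* higher in blastocysts (limma). Of those 7 markers 3 had gaps in the direction of *VIM* in both groups, 2 (*TWIST1* and *THY1*) were lower in morula replicate 2, and 2 (*COL1A1* and *DCN*) were lower in blastocyst replicate 1. Over 9 cumulus or granulosa markers the summed level was 6.49 and 9.44 in morulae, 9.58 and 8.28 in blastocysts and 8.16 to 10.0 in the other samples. At least 7 of the 8 and 8 of the 9 markers lay above the background on every array. The part of such cells in the *VIM* values was not tested.

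**Figure D2:**
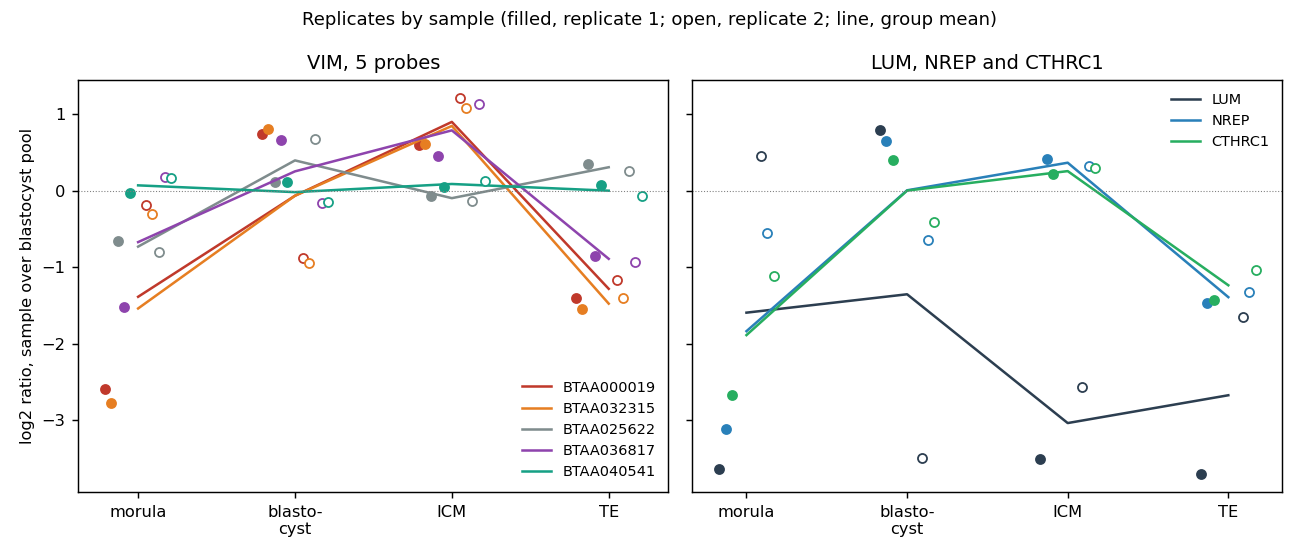
Log2 ratio of sample over pool (vertical axis) by group, for the 5 *VIM* probes (left) and for *LUM*, *NREP* and *CTHRC1* (right). Filled points are replicate 1, open points replicate 2, and lines join group means: the *VIM* probes BTAA000019 and BTAA032315 and the 3 genes on the right have morula replicate 2 above replicate 1 and blastocyst replicate 1 above replicate 2.

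*PRPH*, the second intermediate filament member, was low in morulae and higher in the TE than in the ICM. Its single probe (BTAA007095) measured -4.17 and -4.42 in morulae, -0.07 and 0.13 in blastocysts, -0.94 and -1.15 in ICM and 0.20 and 0.34 in TE samples. None of the 4 groups overlapped, and the order was TE, blastocyst, ICM and morula, with the difference of TE from blastocyst at 0.24 on the log2 scale (standard error 0.14). Blastocysts exceeded morulae 20.1-fold (log2 4.33, standard error 0.14, limma adjusted p = 2.78e-05).

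TE exceeded ICM 2.49-fold for *PRPH* (log2 1.31, standard error 0.14), and even in the ICM the level was 9.53-fold that of the morula. The intensities were 1151 and 2340 in morulae and 23869 and 41815 in the TE, so the low morula values are measured values well above the background. Of the 5 members, *PRPH* thus had the largest difference between blastocyst and morula and the opposite order of ICM and TE from the other intermediate filament gene, *VIM*.

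*MAP1B*, the microtubule member, changed little. Its brightest probe (BTAA037223) measured -0.07 and 0.16 in morulae, 0.01 and 0.00 in blastocysts, 0.18 and 0.18 in ICM and 0.07 and 0.10 in TE samples. All 8 samples lay within 0.25 of each other on the log2 scale, and morulae and blastocysts overlapped (log2 difference -0.04, standard error 0.10, limma adjusted p = 0.830). The ICM values were both above the TE values, by 0.09 on average (standard error 0.10), a difference smaller than its own error that turned to -0.02 with median centring in place of loess.

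One of the 3 dimmer *MAP1B* probes, BTAA026139, was higher in morulae, at 1.01 and 0.65, than in blastocysts, at 0.18 and -0.30. The groups did not overlap and the difference of -0.89 stayed under 2-fold (adjusted p = 0.00308, limma). The remaining 2 probes differed by -0.26 and -0.31 between the stages (adjusted p = 0.0943 and 0.0518). In all 4 probes the ICM was above the TE, by 0.09 to 0.44.

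*MYL9*, the actomyosin member, was lower in morulae by every probe. Its brightest probe (BTAA018589) measured -0.86 and -0.75 in morulae, -0.04 and -0.01 in blastocysts, -0.53 and -0.26 in ICM and 0.16 and -0.39 in TE samples. Morulae lay below all other samples, while ICM and TE overlapped, with a mean difference of -0.28 that became 0.06 without TE replicate 1 and -0.62 without TE replicate 2. The blastocyst difference of 0.78 (standard error 0.19, adjusted p = 0.0256, limma) was under 2-fold, it was 0.19 by the series matrix values (adjusted p = 0.746), and this probe reached the scanner's ceiling in at least 1 channel on 4 arrays.

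Of the unsaturated *MYL9* probes, BTAA043195 and BTAA001771 gave blastocyst over morula at 2.14-fold (adjusted p = 0.00100) and 2.00-fold (adjusted p = 6.92e-04), and BTAA032452 gave 1.50-fold (adjusted p = 0.00467, limma). For the first 2 of these, both ICM samples lay below both TE samples, with log2 differences of -0.33 (standard error 0.12) and -0.27 (standard error 0.099). For BTAA032452 ICM and TE overlapped (log2 difference -0.06, standard error 0.094).

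The probe BTAA017743 had another profile, closer to that of *CAV1*. It measured -2.99 and -4.27 in morulae, 0.38 and -0.41 in blastocysts, 1.07 and 0.60 in ICM and -0.27 and -0.65 in TE samples. Both ICM samples were the highest of all, the blastocysts and TE samples overlapped, and ICM exceeded TE 2.45-fold (log2 1.29, standard error 0.22). The morula arrays were not well above the local background here. By group means, blastocysts stood 12.2-fold, the ICM 21.3-fold and the TE 9.03-fold above morulae (fitted log2 difference of blastocyst and morula 3.61, limma adjusted p = 1.37e-04). Each fold is the smaller of the fold between the ratios and the fold between normalized intensities of the sample channel. As the morula signal was not told apart from background, no fold is exact, and the spread between replicates is not included. Of the other 4 *MYL9* probes, 2 had the opposite order of ICM and TE and 2 overlapped, and which probe reports the *MYL9* transcript was not tested.

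Counted together, 6 of the 20 probes were called higher in blastocysts than in morulae and 0 in the other direction, against 6.85% and 5.53% of all 43653 gene probes. The 6 were 1 each of *CAV1*, *VIM* and *PRPH* and 3 of *MYL9*. With normexp the count was 3, without the *VIM* probe and the *MYL9* probes BTAA043195 and BTAA001771, which gave 0.99 and 0.87, and with median centring it was 4, the same 2 *MYL9* probes giving 0.79 and 0.76. A call needed both a difference of 2-fold or more and an adjusted p below 0.05. Without the fold minimum, 11 probes were higher in blastocysts and 2 higher in morulae. The 11 include 4 probes of *CAV1* and 5 of *MYL9*. The share of all gene probes at this looser threshold was not counted, so nothing is read from these 2 counts. By brightest probe, 2 of the 5 genes, *CAV1* and *PRPH*, were called higher in blastocysts, beside 10.2% of 12545 genes, and 0 of 5 higher in morulae, beside 7.16%.

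Between ICM and TE, 5 of the 20 probes were at least 2-fold higher in the ICM and 1 at least 2-fold higher in the TE, where 1.58% of all gene probes reached 2-fold in either direction. Since ICM and TE values chose the genes, nothing is read from that share. The replicates of ICM lay entirely above those of TE in 13 probes, entirely below in 4, and overlapped in 3. The share of all gene probes with such separation was not counted, and nothing is read from these counts either.

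**Figure D3:**
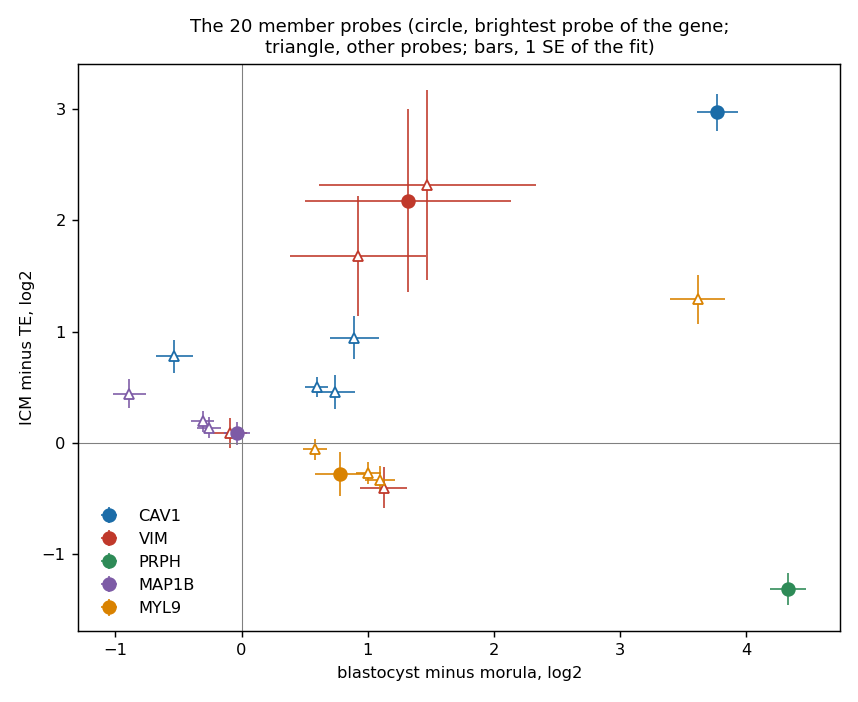
Log2 difference of ICM minus TE (vertical axis) against blastocyst minus morula (horizontal axis) for the 20 probes, with bars of 1 standard error of the fit. Circles are the brightest probes and triangles the others: *CAV1* lies at the upper right, *PRPH* at the lower right, *MAP1B* near the origin, and 1 *MYL9* triangle apart from the other *MYL9* probes.

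Genes whose levels ran closest to each member over the 8 samples were found by the root mean square difference of their log2 ratios, corrected for dye. *CAV1* was nearest to *ACTB*, the gene of cytoplasmic beta-actin, at 0.28, followed by *FLRT3* and *SH3BGRL*. *PRPH* was nearest to *SLC25A21*, a mitochondrial carrier gene, at 0.16, then to *HMGCS1*, an enzyme of cholesterol synthesis, and *PKP1*, a desmosome component. *VIM* was nearest to *NREP* at 0.40, *CTHRC1* and *PYGL*, which by these probes had replicate gaps in the same directions. *NREP* measured -3.11 and -0.56 in morulae and 0.65 and -0.64 in blastocysts. A second *NREP* probe gave 0.78 for morula replicate 2 minus 1. For blastocyst replicate 1 minus 2 it gave -0.16, the other direction. *MAP1B* had near neighbours of equally flat profile, *PSTPIP1*, *KIAA2026* and *HCFC1*, and the brightest *MYL9* probe had *TMEM160*, *CENPX* and *ITGB2*. For the *MYL9* probe BTAA017743, a choice made after its values were seen, the nearest were *SLC7A7* at 0.27, *GMPS* and *IGFBP3*.

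The other genes of the same structures were drawn from 4 lists, of which 126 of 165 genes were measured. Between ICM and TE 6 of these were called higher in the ICM and 1 higher in the TE, beside 1.33% and 0.231% of all genes. The count of 7 fell to 1 when any 1 of the ICM or TE libraries was left out, and to 1 with normexp background correction. Their median log2 difference was -0.06, against 0.01 over all genes. Between blastocyst and morula 28 of the 126 were called higher in blastocysts and 6 higher in morulae, beside 10.2% and 7.16% of all genes, with a median log2 difference of 0.25 against 0.04 over all genes. All p-values in these lists are limma's, adjusted over all gene probes.

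Of 15 caveola genes, 0 were called between ICM and TE by limma, and 5 had an unadjusted p under 0.05, all of them lower in the ICM, as had 11.4% of all genes in that direction. *EHD1* and *PACSIN2*, which bend or scaffold membrane at the necks of caveolae, differed by -0.17 and -0.65 there (adjusted p = 0.640 and 0.230). Between blastocyst and morula *CAVIN4* (log2 1.63, adjusted p = 0.00178), *EHD1* (1.52, adjusted p = 3.64e-04) and *PACSIN2* (log2 1.3, adjusted p = 0.00681) were called higher in blastocysts, as *CAV1* was. *CAV2*, which joins caveolin-1 in the coat, measured -0.998 and -0.76 in morulae, -0.11 and 0.11 in blastocysts, then -0.21 and -0.27 in ICM and 0.26 and 0.17 in TE samples. Its ICM samples lay below its TE samples, the reverse of *CAV1*, with a log2 difference of -0.45 that did not pass (adjusted p = 0.124), and the 0.88 between blastocyst and morula was under 2-fold (adjusted p = 0.00253).

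Of 24 intermediate filament genes, *KRT7*, a keratin of simple epithelia, was called higher in the ICM (log2 1.77, adjusted p = 0.0285). By limma 0 were called higher in the TE. An unadjusted p under 0.05 was reached by 9, of which 7 were lower in the ICM, as were 11.4% of all genes. Of 42 microtubule genes 15 reached it, 9 of them lower in the ICM, and of 45 actomyosin genes 14, 8 of them lower. *KRT15* (2.85), *SYNC* (2.12), *KRT19* (2.11), *PLEC* and *BFSP1* were called higher in blastocysts (log2 differences). The neurofilament genes *NEFL* (-2.71, adjusted p = 3.89e-04) and *NEFM* (-1.37, adjusted p = 0.00890) were called higher in morulae, opposite to *PRPH*. Of the other neuronal filament genes, *INA* was also higher in morulae but under 2-fold (-0.86, adjusted p = 0.00280, limma). *NEFH* did not pass (0.28, adjusted p = 0.116, limma). *KRT5* was also called higher in morulae, but its probe was not well above background there, and no fold is given. *LMNA*, the lamin gene of high intensity, differed by -0.06 between ICM and TE (adjusted p = 0.960).

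Of 42 microtubule genes, *TUBA8* (log2 2.53, adjusted p = 0.00766), *STMN1* (1.95, adjusted p = 0.00330) and *TACC2* (1.42, adjusted p = 0.0161) were called higher in the ICM, and *TUBB2B* (-1.06, adjusted p = 0.0105) higher in the TE. Stathmin, the product of *STMN1*, binds free tubulin and promotes microtubule disassembly. *TUBB2B* was also the gene of largest rise among 9 called higher in blastocysts (log2 4.13, adjusted p = 1.93e-05), followed by *TPPP3* (2.67) and *DCLK1* (2.47). *MAP1LC3B*, known as an autophagosome protein, was the 1 called higher in morulae (-1.01, adjusted p = 5.64e-04). The remaining 2 *TUBB2B* probes gave 0.51 and -0.0021 between the stages and -0.05 and 0.03 between ICM and TE, and did not pass. The second *STMN1* probe gave 2.06 between ICM and TE (adjusted p = 0.00270), and the other *TACC2* probes gave 0.44 to 0.81 and did not pass. *TUBA1B*, among the brightest of the list, differed by 0.24 between ICM and TE (adjusted p = 0.438), with its probe saturated on 4 arrays.

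Of 45 actomyosin genes, *ACTB* (log2 2.65, adjusted p = 0.0161) and *ROCK2* (1.26, adjusted p = 0.0147), a kinase that acts on myosin light chains through their phosphatase, were called higher in the ICM. *ACTB* measured -3.95 and -3.98 in morulae, 0.46 and -0.71 in blastocysts, 0.85 and 1.10 in ICM and -1.55 and -1.81 in TE samples, the same order of groups as *CAV1*. A second *ACTB* probe gave 1.67 between ICM and TE (adjusted p = 0.0321) and the third 0.20 (adjusted p = 0.823), while the second *ROCK2* probe gave 0.01 (adjusted p = 0.995). Actin and tubulin probes may share targets with related genes, which was not tested. *CNN2*, a calponin, led the 11 genes called higher in blastocysts (5.14, adjusted p = 1.85e-05), followed by *ACTB* (3.84) and *TAGLN2* (2.66), whose probe was saturated on 1 array. *ROCK2* (-2.66) and *PPP1R14C* (-2.56) were called higher in morulae. The second *ROCK2* probe gave -0.09 between the stages and did not pass (adjusted p = 0.666, limma). The other *ACTB* probes gave 2.16 and 0.89 there, the latter under 2-fold. *ACTG1*, the gamma-actin gene, differed by -0.26 between ICM and TE (adjusted p = 0.286), but its probe was saturated on 5 arrays, and no difference is read from it. Among 4 smooth muscle markers, *ACTA2* was called higher in blastocysts (1.12, adjusted p = 0.00192), and 0 were called between ICM and TE by limma. There 3 had an unadjusted p under 0.05, lower in the ICM, as had 11.4% of all genes in that direction.

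**Figure D4:**
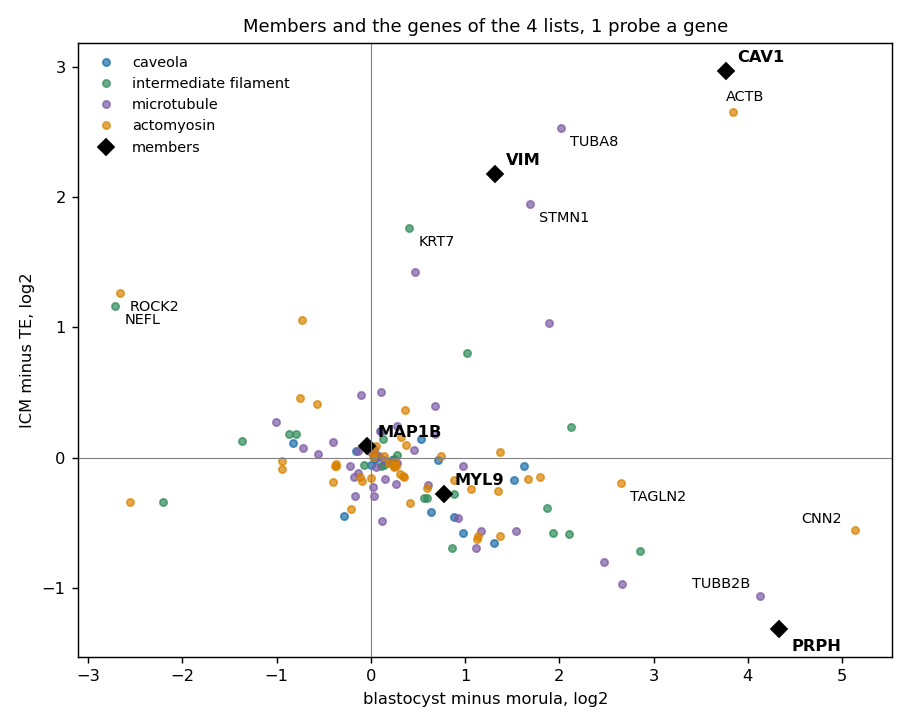
Log2 difference of ICM minus TE (vertical axis) against blastocyst minus morula (horizontal axis), 1 probe a gene, for the 5 members (diamonds) and 126 genes of the 4 lists (points, coloured by list). *ACTB* lies beside *CAV1*, *TUBB2B* beside *PRPH*, and most list genes lie within 1 of no difference between ICM and TE.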

How the data were processed

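Arrays held 45220 spots, 43653 of them gene probes. The intensities deposited by the authors are mean spot values of both channels, extracted with Imagene and not normalized, each beside a local background. The series matrix holds log2 values that the authors normalized by loess and corrected for dye bias gene by gene, and these served as an alternative (correlation with the ratios used here 0.727 to 0.993). The sample was in Cy3 in replicate 1 and in Cy5 in replicate 2 of every group.

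In R 4.3.3 with limma 3.58.1, log2 ratios were loess-normalized within arrays without background subtraction, and 4 group means and a dye term were fitted to all 8 arrays, leaving 3 residual degrees of freedom per probe. P-values were adjusted by Benjamini-Hochberg over all gene probes. The small number of arrays limits the precision. The dye term equals the replicate block: replicate differences correlated between groups at r = 0.201 to 0.486 over all 6 pairs of groups, 0.338 for ICM and TE. The study describes taking ICM and TE from the same embryo. Whether ICM and TE replicates of the same number share embryos was not tested. Whether replicates are separate embryo batches rests on the study's description, and its sample list equates blastocyst samples 1 and 2 with blastocyst pools 1 and 2. A probe was above background where its mean exceeded the local background mean by 2 standard deviations, and saturated from 65000. Of 12552 array symbols, 11579 were current, 838 were synonyms and 135 were not found. Position along the transcript could not be used to choose probes, so the probe of highest mean intensity stood for a gene.

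Members and lists were chosen with earlier results of these data known. Named genes are the members; per list up to 3 called genes of largest difference per direction and comparison and up to 2 bright ones that did not pass; the 3 nearest genes per member; and cell markers. A few others, such as *CAV2*, *INA*, *NEFH* and the genes sharing the replicate gap of *VIM*, were named beside these. The fit was tested on simulated data. Inhibitor-treated embryos were not analysed here.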

Additional observations from a re-analysis of the deposited data

How the results depend on the processing

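Results were recomputed with normexp background correction, the series matrix values, centring on the median, quantile normalization after loess, the upper 60% of probes by intensity, no replicate block, only the 4 arrays compared, each replicate left out, each other probe, the mean of a gene's probes, and a minimum of 1.5-fold. Leaving out the replicate block changed no call of a member, with 166 in place of 196 genes called between ICM and TE and 2161 in place of 2178 between blastocyst and morula.

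The choice of probe moved the members most. For ICM minus TE, *CAV1* (2.97) was 1.13 by the mean over probes and 0.78, 0.95, 0.45 and 0.50 by its other probes, *VIM* (2.18) was 1.17 by the mean and -0.40, 1.68 and 0.088 by probes, *MAP1B* (0.087) was 0.22 by the mean and 0.44, 0.14 and 0.20 by probes, and *MYL9* (-0.28) was 0.071 by the mean and 1.29 by BTAA017743. For blastocyst minus morula, *CAV1* (3.77) was -0.53, 0.89, 0.74 and 0.60 by other probes, *VIM* (1.32) 1.13 and -0.088, and *MYL9* (0.78) 1.42 by the mean and 1.10, 1.00 and 3.61 by probes, against 0.19 by the series matrix values (adjusted p = 0.746). Median centring gave -1.44 for *PRPH* and -0.017 for *MAP1B* between ICM and TE, and 0.20 for the *VIM* probe BTAA040541 between the stages. Normexp gave 2.66 for *CAV1* between ICM and TE and -0.18 for the *VIM* probe BTAA025622 between the stages. The causes were not tested.

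Leaving out 1 replicate gave, for ICM minus TE, 2.70 to 3.24 for *CAV1*, 0.045 to 0.128 for *MAP1B* and -0.62 to 0.059 for *MYL9*. For blastocyst minus morula it gave -0.033 to 2.67 for *VIM*, -0.15 to 0.072 for *MAP1B* and -0.24 to 0.065 for the *VIM* probe BTAA040541.

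Genes called between ICM and TE numbered 196 (167 higher in the ICM), 28 with normexp, 17 to 68 without 1 replicate, 509 at 1.5-fold and 114 by the mean over probes. The split of higher and lower, 167 and 29, became 146 and 78 with median centring. The count of 7 list genes called there became 1 with normexp, 1 without any 1 replicate and 4 by the mean over probes. Between blastocyst and morula 2178 genes were called, 3809 at 1.5-fold and 1411 by the mean, and the split of 1280 and 898 became 1072 and 1261 with median centring. The 34 list genes called there became 56 at 1.5-fold. The 6 member probes called there became 3 with normexp, 4 with median centring and 5 to 7 without 1 replicate. With 2 replicates a group, sizes of the members rest on few arrays, and no probe positions were available to tell transcript forms apart.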
